A study of Mus musculus with 3 samples.

Results

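The Schlafen family comprises 7 protein-coding genes here, Slfn1, Slfn2, Slfn3, Slfn4, Slfn5, Slfn8 and Slfn9, chosen by symbol from the 55536 annotated mouse genes, and all 7 were found. Total RNA-seq after ribosomal RNA depletion measured their RNA in the chromatin fraction of C57BL/6J macrophages grown from bone marrow. Every library came from cells given lipid A, a TLR4 agonist derived from lipopolysaccharide, at 100 ng/ml over 12 h. The agonist was washed out and left off for 12 h, and 100 ng/ml was then added once more for 30 min. The labels describe 1 group of 3 biological replicates with 1 shared donor identifier, and no unstimulated or once-stimulated group was analysed here, so no value below is a response to lipid A. Replicate 1 was made from 1 µg of RNA, replicate 2 from 250 ng and replicate 3 from 500 ng, so effects of input and of replicate cannot be told apart. Age and sex were not collected, per the labels, and p-values measure only the spread between these samples.

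Schlafen proteins share an N-terminal core that folds into a nuclease-like structure, and several members cut or bind transfer RNA. In mice the genes fall into a short class (Slfn1, Slfn2), an intermediate class (Slfn3, Slfn4) and a long class with a helicase-like extension (Slfn5, Slfn8, Slfn9, Slfn14). Type I interferon, which macrophages release after TLR4 activation, induces several of them through transcription factors that bind interferon-stimulated response elements. Chromatin-associated RNA is enriched for transcripts still attached to their template, and it also holds finished RNA that stays with chromatin.

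Promoter windows are shown first, as a description. The stretch that sets the short and intermediate classes apart was picked from these same windows, so the split of motifs by class is not a test. The interferon-stimulated response element core, GAAANNGAAA on either strand, was present in 3.44% of 32851 RefSeq promoters of 300 bases (250 before to 50 after the start site; build GRCm38.p6). Counted by gene, 3.99% of 27025 genes held it, and so did all 3 long-class members. The capitals mark the match, and each stretch is written 5′ to 3′ on the gene's strand with 25 bases on either side.
Slfn5, chr11:82951922-82951981, plus strand: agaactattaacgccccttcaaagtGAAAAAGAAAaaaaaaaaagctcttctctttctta
Slfn8, chr11:83020824-83020883, minus strand: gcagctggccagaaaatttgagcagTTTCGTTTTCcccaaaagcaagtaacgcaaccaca
Slfn9, chr11:82991841-82991900, minus strand: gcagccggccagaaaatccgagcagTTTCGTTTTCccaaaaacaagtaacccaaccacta

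The match began 155 bases before the RefSeq start site in Slfn5 and 45 bases before it in Slfn9. The gene annotation used for the levels below starts Slfn5 further upstream, at 82951349. The Slfn5 match thus lies inside the annotated span of that gene. RefSeq gives Slfn8 2 overlapping promoter windows, in which the same match began 48 and 136 bases before the start site. The matched letters of Slfn8 and Slfn9 were identical, and those of Slfn5 differed and ran into a stretch of A. No match was found in the windows of Slfn1, Slfn2, Slfn3 and Slfn4, which says only that these letters were not in those 300 bases.

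The short-class and intermediate-class members held another stretch, ACTTCCTGG, which contains the core bound by ETS-family factors. The stretch was chosen after the sequences were seen, so its presence in these genes is a description. On either strand it was present in 0.843% of the 32851 promoters and, counted by gene, in 0.999% of 27025 genes. None of the 4 member windows that held it also held the response element core. The capitals again mark the match.
Slfn1, chr11:83116721-83116779, plus strand: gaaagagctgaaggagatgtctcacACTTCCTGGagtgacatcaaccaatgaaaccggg
Slfn2, chr11:83065032-83065090, plus strand: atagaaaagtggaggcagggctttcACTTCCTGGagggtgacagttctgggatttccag
Slfn3, chr11:83191263-83191321, plus strand: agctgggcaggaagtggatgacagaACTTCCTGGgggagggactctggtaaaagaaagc
Slfn4, chr11:83175088-83175146, plus strand: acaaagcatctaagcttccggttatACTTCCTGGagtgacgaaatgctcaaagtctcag

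These matches began 74, 55, 42 and 73 bases before the start sites of Slfn1, Slfn2, Slfn3 and Slfn4. The window of Slfn14, the long-class gene that was near 0 in these libraries, held neither motif. Both sets of members included genes at high and at low levels, as the values below show.

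All 7 members lay above 1 TPM (abundance corrected for transcript length and scaled to 1 sum in every library) in a limma fit over the 24180 genes with a nonzero value, against 51.1% of all genes tested and 61.8% of the 15120 protein-coding genes tested. The median of the 7 mean levels was 175 TPM, against 4.17 TPM for protein-coding genes. The family split into 4 genes above 100 TPM in every library, Slfn4, Slfn8, Slfn2 and Slfn5, and 3 genes below 50 TPM in every library, Slfn3, Slfn1 and Slfn9. Each class held at least 1 gene above 100 TPM and 1 below 50 TPM. The median and the count describe this list and are not evidence that the family stands apart from other genes.

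Slfn2 encodes a short-class protein that is needed for T cell quiescence and survival and that binds transfer RNA and protects it from cleavage. Its level was 246.51, 162.29 and 239.36 TPM in replicates 1, 2 and 3 (216 ± 46.7, SD, n = 3). Replicate 2 was the low library and the other two were close to each other. On the log2(TPM + 0.1) scale it lay 7.59 above 1 TPM (SE 0.20, limma adjusted p = 3.94e-05). It ranked 209 of 15120 protein-coding genes.

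Slfn1, the other short-class gene and the founding member of the family, is known for restraining thymocyte growth. It was at 22.82, 17.6 and 9.51 TPM in replicates 1, 2 and 3 (16.6 ± 6.71, SD, n = 3), with replicate 3 the low library. It lay 3.84 above 1 TPM on the log2 scale (SE 0.30, limma adjusted p = 0.000348). Slfn2 exceeded Slfn1 by 10.8, 9.22 and 25.2 times in the 3 libraries, and the ranges did not overlap.

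Slfn4, an intermediate-class gene whose level is known to change during myeloid differentiation and with type I interferon, had the highest mean in the family. It was at 328.26, 298.27 and 240.78 TPM in replicates 1, 2 and 3 (289 ± 44.5, SD, n = 3). All 3 libraries exceeded every library of Slfn3, Slfn1 and Slfn9. It lay 8.03 above 1 TPM on the log2 scale (SE 0.17, limma adjusted p = 3.94e-05), and it ranked 139 of 15120 protein-coding genes.

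Slfn3, its close relative, known from T cells and from the differentiation of intestinal epithelium, was much lower. It was at 46.96, 29.24 and 31.5 TPM in replicates 1, 2 and 3 (35.9 ± 9.64, SD, n = 3), and replicate 1 was the high library. It lay 5.0 above 1 TPM on the log2 scale (SE 0.20, limma adjusted p = 6.04e-05). Slfn4 exceeded Slfn3 by 6.99, 10.2 and 7.64 times in the 3 libraries. A second deposited quantification of the same libraries gave 4.64, 6.10 and 5.12 times. The genes are neighbours on the same strand, with Slfn4 at chr11:83175186-83190216 and Slfn3 at chr11:83191330-83215154 in mm10.

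Slfn8, a long-class gene on the minus strand, was at 294.34, 196.08 and 192.37 TPM in replicates 1, 2 and 3 (228 ± 57.8, SD, n = 3). Replicate 1 was high and the other two were nearly equal. It lay 7.66 above 1 TPM on the log2 scale (SE 0.20, limma adjusted p = 3.94e-05).

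Slfn9, the long-class paralog of Slfn8, was at 22.48, 15.59 and 11.02 TPM in replicates 1, 2 and 3 (16.4 ± 5.77, SD, n = 3). Its mean was the lowest in the family, with libraries that overlapped those of Slfn1, and it lay 3.84 above 1 TPM on the log2 scale (SE 0.25, limma adjusted p = 0.000203). Slfn8 exceeded Slfn9 by 13.1, 12.6 and 17.5 times in the 3 libraries, and by 7.83, 7.30 and 7.71 times in the second quantification. The ranges did not overlap in either. Both hold the same matched response element letters close to the start site.

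Slfn5 is a long-class nuclear protein and an interferon-induced regulator of transcription. It was at 230.87, 129.53 and 164.55 TPM in replicates 1, 2 and 3 (175 ± 51.5, SD, n = 3), with replicate 1 high and replicate 2 low. It lay 7.27 above 1 TPM on the log2 scale (SE 0.22, limma adjusted p = 4.02e-05).

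**Figure D1:**
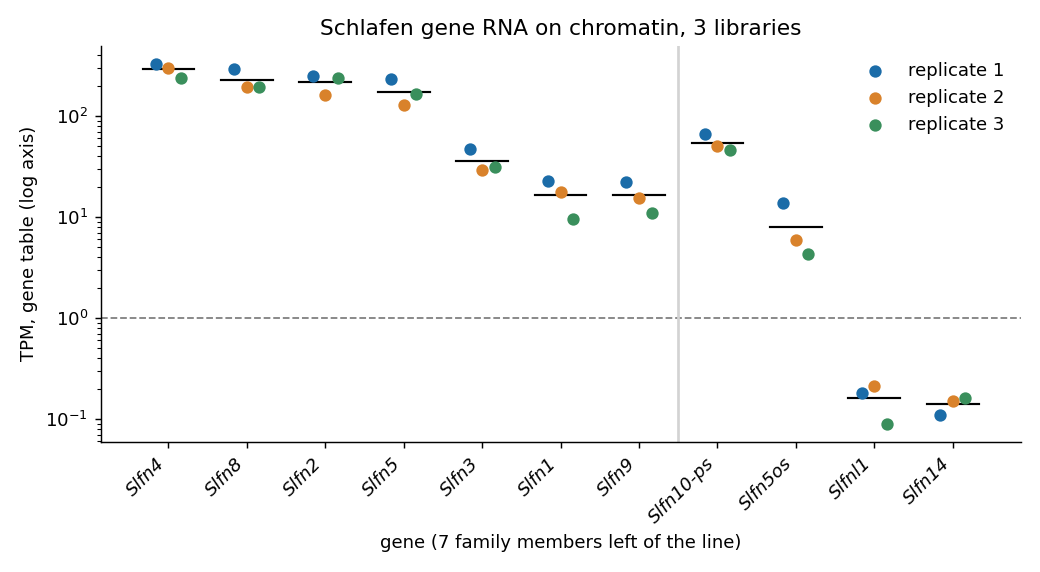
TPM from the gene table (log axis) for the 7 family members, left of the vertical line, and 4 other genes named Slfn; points are the 3 libraries, black bars their means and the dashed line 1 TPM. Neighbours among Slfn4, Slfn8, Slfn2 and Slfn5 overlap, while Slfn4 lies above Slfn5; Slfn3, Slfn1 and Slfn9 lie lower, and Slfnl1 and Slfn14 lie below 1 TPM in every library.

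The order of mean TPM was Slfn4, Slfn8, Slfn2, Slfn5, Slfn3, Slfn1 and Slfn9, and only some neighbours in it were separated. The ranges of neighbours among the first 4 genes overlapped: Slfn4 over Slfn8 had a mean log2 ratio of 0.36 (SD 0.23), and Slfn8 over Slfn2 had 0.07 (SD 0.33) and was positive in 2 of 3 libraries. Slfn5 and Slfn3 did not overlap, with a mean log2 ratio of 2.28 (SD 0.12). Slfn3 and Slfn1 did not overlap either, with 1.17 (SD 0.51). Slfn1 and Slfn9 overlapped and could not be ordered. With 3 libraries an exact two-sided sign test cannot go below p = 0.25, so these orders are descriptions.

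The highest member exceeded the lowest by 14.6, 19.1 and 25.3 times in replicates 1, 2 and 3. Slfn4 was the highest in every library, while the lowest was Slfn9 in replicates 1 and 2 and Slfn1 in replicate 3. In the second quantification, Slfn8, Slfn4 and Slfn2 were the highest in replicates 1, 2 and 3, and Slfn1 was the lowest in all 3. Slfn4, Slfn8, Slfn2 and Slfn5 made up on average 29.9%, 23.1%, 22.2% and 17.7% of the family's summed TPM.

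Close paralogs can exchange reads, so the split between similar members depends on their sequences. The coding sequences of Slfn8 and Slfn9 were both 2733 bases long and 92.7% identical. Slfn3 (1923 bases) and Slfn4 (1809 bases) were also 92.7% identical over 1788 aligned bases. Slfn1 (1014 bases) and Slfn2 (1137 bases) were 71.7% identical over 1005 aligned bases. Slfn5 (2655 bases) was 63.2% identical to Slfn8 over 2584 aligned bases, so the long class held both a close pair and a distant member.

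Over short stretches most of each member was distinct. Of the distinct 31-base stretches in a member's annotated transcripts, the share that also occurred in another gene on either strand ran from 1.96% for Slfn1 to 30.9% for Slfn3. Over 75 bases it fell to between 0% for Slfn1 and 8.22% for Slfn5. Slfn3 and Slfn4 shared 516 of the 31-base stretches, and Slfn8 and Slfn9 shared 792. The pseudogene Slfn10-ps shared 851 with Slfn9 and 776 with Slfn8.

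The deposited posterior standard deviation of each count, which grows where reads could be assigned to more than 1 gene, was small beside the counts of every member. It was 0 for Slfn1 and Slfn2 in every library and at most 0.27 counts for Slfn4. For Slfn9 it was at most 3.09 counts, on 804 to 1185 expected counts. It was highest for Slfn5, at 8.70, 5.69 and 5.43 counts in replicates 1, 2 and 3. Its antisense neighbour Slfn5os had the same value in each library.

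The second quantification, deposited as transcript estimates made directly from the reads, also separated the 4 higher genes from the 3 lower ones. In it Slfn9 was at 25.8 ± 7.06 TPM (SD, n = 3), 1.58 times its value in the gene table and above Slfn1 in every library. Slfn4 was at 211 ± 41.1 TPM (SD, n = 3), and Slfn5 at 192 ± 61.8 TPM (SD, n = 3) had a higher mean than Slfn2. That order held in 2 of 3 libraries, with overlapping ranges and a mean log2 ratio of 0.07 (SD 0.18), so Slfn2 and Slfn5 could not be ordered there. Slfn9 and Slfn1 did not overlap in this table, with a mean log2 ratio of 0.93 (SD 0.42), whereas they overlapped in the gene table. Their ranges nearly touched, with the lowest Slfn9 library at 20.75 TPM and the highest Slfn1 library at 20.64 TPM.

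**Figure D2:**
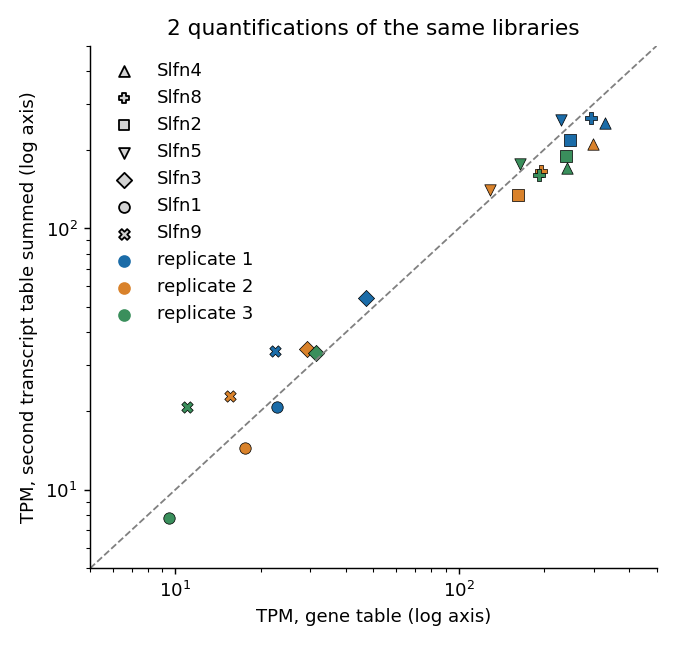
TPM of the 7 members in the gene table (horizontal, log axis) and in the second transcript table summed per gene (vertical, log axis); shape gives the gene, colour the library and the dashed line equality. The 3 points of Slfn9 lie above the line, those of Slfn4 lie below it, and the 4 high and 3 low genes stay apart on both axes.

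Every member was highest in replicate 1. On CPM (counts relative to the library total, with no correction for length) scaled by the TMM method of edgeR, 7 of 7 members were highest in that library, against 28.8% of the 10850 protein-coding genes that passed the filter on low counts, which all 7 members passed. The same 7 of 7 held with DESeq2 scaling, with TPM and in the second transcript table, all of which were added after the data were seen. The count by library was itself not among the planned results, so it is a description on every scale. Of the interferon signalling genes, 12 of 15 were highest in replicate 1 as well, while 3 of 10 transfer RNA genes were. Replicate 1 had the largest RNA input, the smallest total (12401783 expected counts on named genes, against 18317179 and 18164629) and the largest share of counts in rows that name no gene (1.04%, against 0.425% and 0.401%). The part of these in the result was not tested.

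Slfn1 varied most between libraries, and Slfn9 came next in the gene table. Relative to its own mean, Slfn1 deviated by 0.59, 0.13 and -0.72 on the log2 scale in replicates 1, 2 and 3, and Slfn9 deviated by 0.56, -0.09 and -0.47. Slfn2 had another pattern, with 0.26, -0.43 and 0.17, so its lowest library was replicate 2. In all, 4 members were lowest in replicate 2 and 3 in replicate 3. The coefficient of variation of scaled CPM was 41.9% for Slfn1 and 37.3% for Slfn9, and 15.9% for Slfn4, the steadiest member. In the second table Slfn1 was at 43.3% and Slfn4 at 16.8%, but Slfn9 was at 24.8%, below Slfn3 (26.7%), Slfn8 (26.2%) and Slfn5 (25.5%). The median over the family was 26.4%, against 15.6% for the protein-coding genes that passed the filter.

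**Figure D3:**
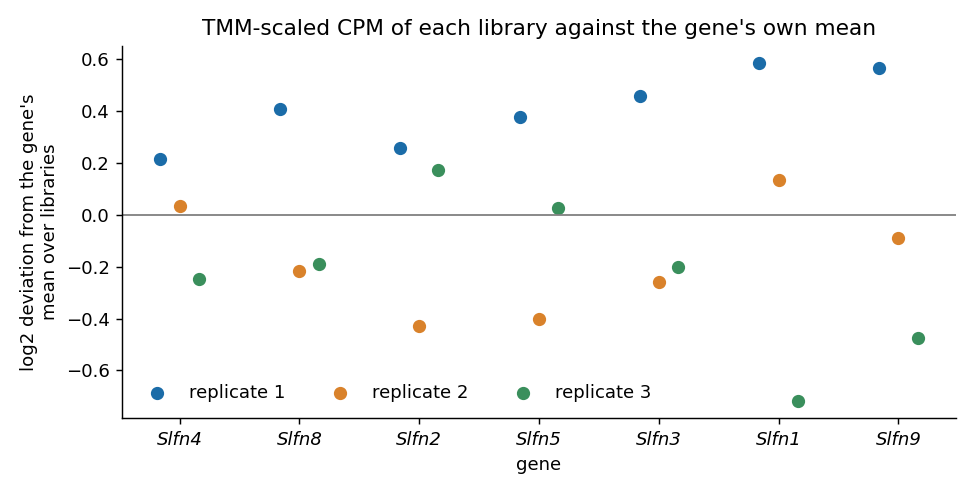
Difference of each library's TMM-scaled CPM from the gene's mean over the 3 libraries (log2 units) for the 7 members; colours are the replicates. Replicate 1 is the top point of every gene, and Slfn1 has the widest spread, from 0.59 to -0.72.

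The members had 21 annotated transcripts, 19 of them protein-coding, 2 of the processed transcript class (no annotated open reading frame) and 0 of the retained intron class. Introns are in none of these models, so unspliced RNA is not counted as a class of its own. Slfn1 and Slfn2 have 1 transcript each.

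Slfn3 was the member with the most counts on a transcript that has no open reading frame. Slfn3-203, a processed transcript, held 50.9%, 56.3% and 45.8% of the Slfn3 counts in replicates 1, 2 and 3 (51.0% ± 5.24, SD, n = 3), and 56.6% ± 2.22 (SD, n = 3) in the second table. On the gene's TPM the coding transcripts of Slfn3 are thus only part of what was measured. The other processed transcript, Slfn5-204, was listed at 0 in every library of the first table and held 2 to 7.01 counts in the second.

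Slfn4 counts fell mainly on Slfn4-201 (68.1% ± 4.49, SD, n = 3) and Slfn4-202 (31.4% ± 4.48, SD, n = 3). Slfn5-201 held 88.1% ± 3.61 (SD, n = 3) of the Slfn5 counts and Slfn9-201 held 92.0% ± 2.04 (SD, n = 3) of those of Slfn9. In these 3 genes the same transcript led in all libraries and in both tables.

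Slfn8 had 6 annotated protein-coding transcripts, and the split among the minor ones was not stable. Slfn8-201 led with 51.2% ± 1.98 (SD, n = 3) of the counts, and with 60.8% ± 5.15 (SD, n = 3) in the second table. Slfn8-203 took 2154, 341 and 983 counts in replicates 1, 2 and 3. Slfn8-206 took 1190, 2225 and 1770 counts in the first table and was listed at 0 in every library of the second. The level of the whole gene moved less, from 228 TPM in the gene table to 197 ± 59.1 TPM (SD, n = 3) in the second table.

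**Figure D4:**
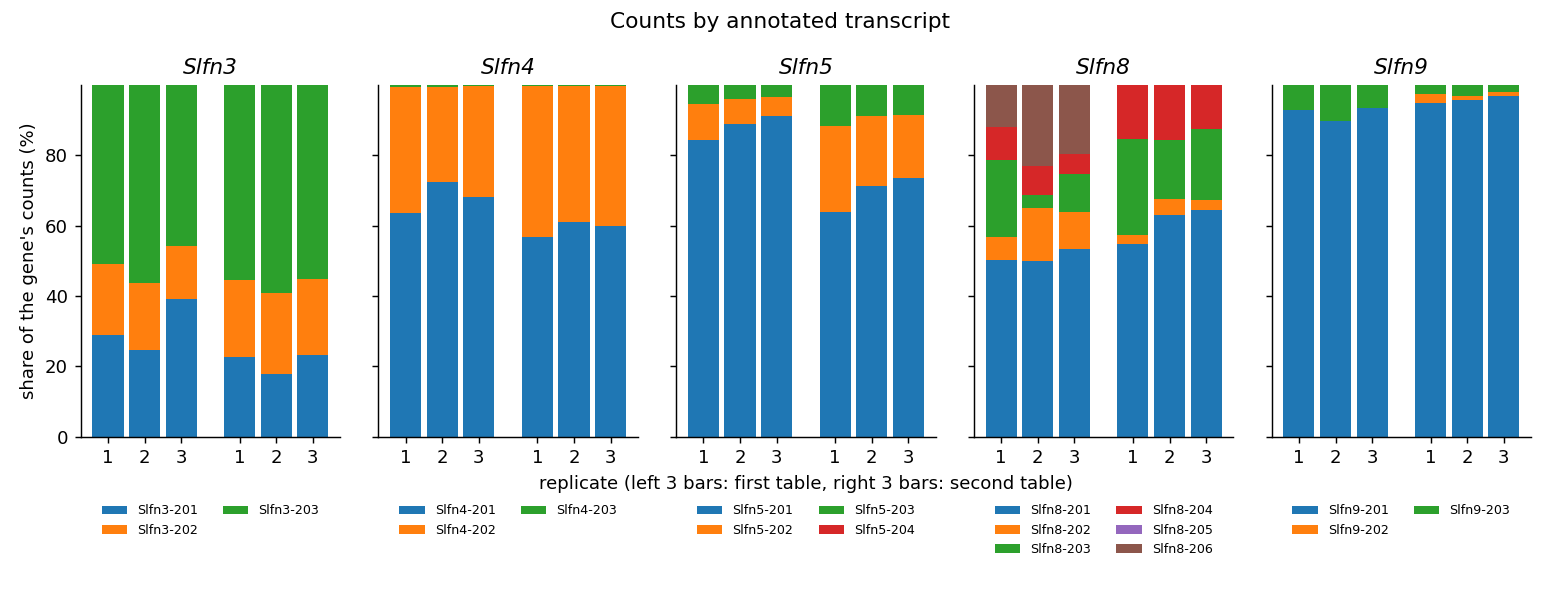
Share of each gene's counts (%) on each annotated transcript for the 5 members with more than 1 transcript; the left 3 bars are replicates 1 to 3 in the first transcript table and the right 3 bars the same libraries in the second. Slfn3-203 holds 45.8% to 59.2% of Slfn3 in every bar, and Slfn8-206 appears only in the first table.

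The members span 264 kb of chromosome 11 (chr11:82951349-83215154, mm10). Along the chromosome they run Slfn5 (from 82951349 to 82964840), Slfn9 (82978390 to 82991830), Slfn8 (83002158 to 83020810), Slfn2 (83065112 to 83070678), Slfn1 (83116849 to 83122670), Slfn4 and Slfn3. Slfn8 and Slfn9 lie on the minus strand and the others on the plus strand. The symbols of 4 other annotated genes start with Slfn. Slfn10-ps, a transcribed pseudogene beside Slfn8, was at 67.08, 50.4 and 46 TPM in replicates 1, 2 and 3, above every library of Slfn1 and Slfn9, and passed the limma test (adjusted p = 4.17e-05). It shares stretches with Slfn8 and Slfn9, as given above, and the posterior standard deviation of its count was 2.97 to 3.73 on 2311 to 2696 expected counts. In the second table its mean was 46.4 TPM.

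Slfn14, a ribosome-associated endonuclease known from platelets and red cell precursors, was at 0.11, 0.15 and 0.16 TPM on 4 to 8 expected counts, with a limma adjusted p of 1.00. It lies beyond Slfn3 at the end of the cluster. Slfnl1, on chromosome 4, was at 0.18, 0.21 and 0.09 TPM, also with a limma adjusted p of 1.00. These were the 2 genes named Slfn that did not lie above 1 TPM.

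The genes that overlap members differed widely between the gene table and the second table, and the cause was not tested. Whether counting used strand is not given in the sources used here, so reads of a member and of its antisense gene may be shared. Slfn5os, antisense to Slfn5, was at 13.66, 5.86 and 4.27 TPM in replicates 1, 2 and 3, and at 58.1, 18.3 and 14.6 TPM in the second table. It shares 505 stretches of 31 bases with Slfn5 on the opposite strand and 0 on the same strand. In the gene table both genes had fractional expected counts (9337.28 for Slfn5 and 26.72 for Slfn5os in replicate 2). Their posterior standard deviations were equal in each library. Some reads were thus divided between Slfn5 and Slfn5os in that table. Gm20234, antisense to Slfn2 over 4927 bases, was at 40.5 TPM on average in the gene table and 345 TPM in the second. Its annotated exons share 0 such stretches with those of Slfn2. Mir7679, inside Slfn9 on the same strand, was listed at 0 in the gene table and at 567 TPM on average in the second, on 138 to 194 estimated counts.

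Within 100 kb on either side of the members there were 24 genes not named Slfn, of which 14 had a nonzero value. Of those 14, 10 passed the test, against 51.1% of all genes tested. The highest of the 24 was Gm23444, annotated as a small nuclear RNA near Slfn14. Its mean was 12266 TPM in the gene table and 3609 TPM in the second. The next of these by mean TPM were Gm20234 and the processed pseudogene Gm11425 (38.4 ± 8.40 TPM, SD, n = 3), both below Slfn10-ps. The pseudogene Gm11427, next to Slfn3, followed at 34.02 TPM and shared 367 stretches of 31 bases with Slfn3 and 348 with Slfn4. It was named after its value was seen.

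**Figure D5:**
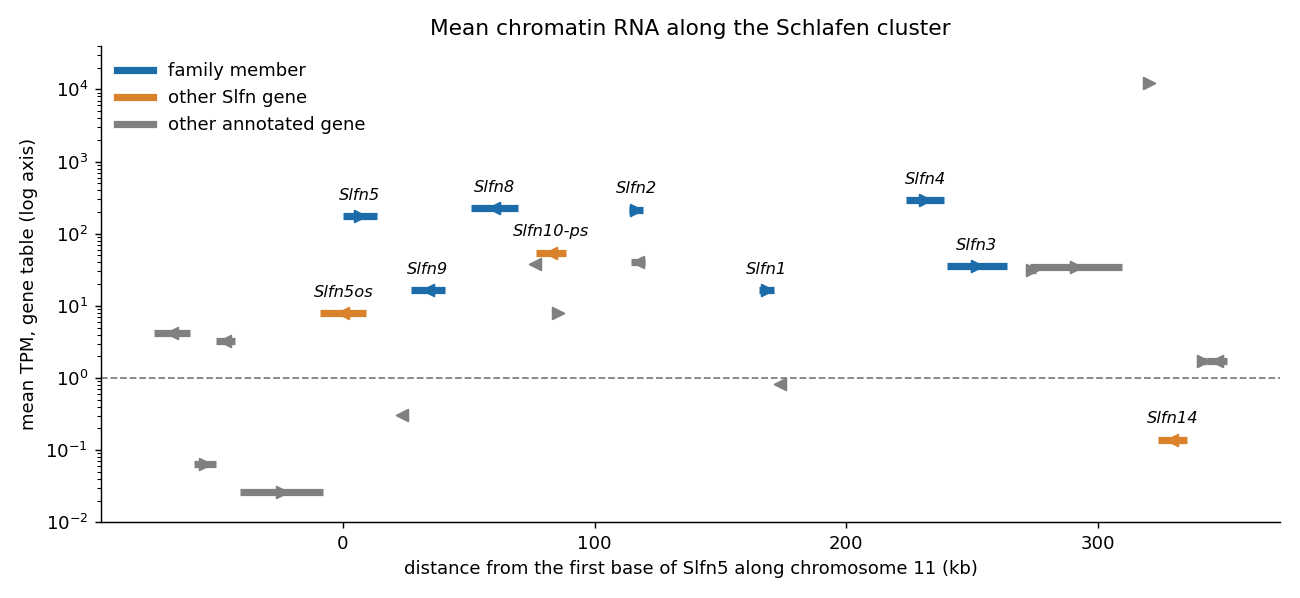
Mean TPM in the gene table (log axis) of annotated genes with a nonzero value along the cluster, by distance in kb from the first base of Slfn5; bars show gene length to scale, arrowheads the strand and the dashed line 1 TPM. High members (Slfn5, Slfn8, Slfn2, Slfn4) and low members (Slfn9, Slfn1, Slfn3) are interleaved along the cluster, and Slfn14 lies below 1 TPM.

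The interferon signalling list of 16 genes holds the ligand Ifnb1, its receptors, the kinases, the STAT and IRF factors and the inhibitors. Of these 16 genes, 15 lay above 1 TPM, against 61.8% of protein-coding genes tested. The median of the list was 81.4 TPM, against 4.17 TPM for protein-coding genes tested. Irf1 was the highest, at 1096.09, 417.82 and 900.58 TPM in replicates 1, 2 and 3, with replicate 2 low. Most of the list differed from it in this. On TMM-scaled CPM, 10 of the 15 list genes that passed the filter on low counts were lowest in replicate 3 and 4 in replicate 2. Stat2 was at 570 ± 96.7 TPM (SD, n = 3), above every Slfn member in every library. Irf9, which binds the response element together with Stat2, was lower, at 45.8 ± 7.10 TPM (SD, n = 3).

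Ifnb1 itself, the interferon beta gene, was the 1 gene of the list that did not pass. It was at 1.73, 0.78 and 0.93 TPM in replicates 1, 2 and 3, on only 10, 6 and 7 expected counts. These levels lay on either side of 1 TPM (limma adjusted p = 0.63). The receptor genes Ifnar1 (85.3 ± 7.01 TPM, SD, n = 3) and Ifnar2 (55.2 ± 3.57 TPM, SD, n = 3) both passed. The inhibitor Usp18 was at 70.6 ± 29.5 TPM (SD, n = 3), and the inhibitor Socs1 was low, at 2.52 ± 0.74 TPM (SD, n = 3).

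All 10 genes on the list of transfer RNA cleavage and protection lay above 1 TPM, with a median of 12.3 TPM. Among protein-coding genes tested, 61.8% lay above 1 TPM and the median was 4.17 TPM. Zc3h12a, the endoribonuclease Regnase-1, was at 41.9 ± 1.61 TPM (SD, n = 3) and the CCA-adding enzyme Trnt1 at 27.8 ± 7.95 TPM (SD, n = 3). Ang, the secreted ribonuclease angiogenin that cuts transfer RNA, was the lowest, at 1.81, 2.27 and 1.16 TPM (limma adjusted p = 0.0411), and it did not pass without replicate 1 or without replicate 2. Slfn2, whose protein protects transfer RNA from cleavage, was above every gene of this list in every library.

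By nearness of log2(TPM + 0.1) over the 3 libraries, the protein-coding genes most like Slfn4 were Ctsd (cathepsin D; Euclidean distance 0.05), the interferon-induced gene Ifit3 (0.11) and Frmd4b (0.14). The measure rewards a like level in 3 libraries and says nothing of shared control.

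The labelled cell type was checked against markers. All 7 macrophage markers lay above 1 TPM, against 61.8% of protein-coding genes tested. Adgre1 was the highest at 345 TPM, and the summed level of the 7 was 1017 to 1097 TPM per library. Of 7 T and NK cell markers, relevant because Slfn1, Slfn2 and Slfn3 are known from T cells, 1 passed: Cd4, at 7.33 TPM, while Cd3e, Trbc2 and Ncr1 were at 0 in every library and the sum was 6.77 to 8.53 TPM. Of 3 B cell markers 0 passed (highest Ms4a1 at 0.127 TPM, sum 0.02 to 0.35 TPM). Of 5 granulocyte markers 0 passed (highest Camp at 0.0867 TPM, the others at 0, sum 0 to 0.13 TPM). Of 7 erythroid and megakaryocyte markers 2 passed (Pf4, the highest at 3.32 TPM, and Gp9), with Ppbp and Hbb-bs at 0 and a sum of 6.32 to 10.2 TPM. In bulk samples, fewer cells of a type and less RNA per cell cannot be told apart.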

How the data were processed

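Per the file headers, expected counts and TPM fill the gene table and 1 transcript table, called the first here, which have the column layout of RSEM. Estimated counts and TPM fill the other transcript table, called the second here, which has the layout of kallisto. The authors' deposited posterior standard deviation of the count was used as a score of read assignment. The deposited text files give mm10 and annotation release M21; the strand setting, aligner and versions were not given in the sources used here. Rows that name no gene (26345 rows; 1.04%, 0.425% and 0.401% of counts) entered neither library sizes nor tests.

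For each of 24180 genes, limma (3.58.1) compared the mean of log2(TPM + 0.1) with 1 TPM (one-sided, intercept only), with Benjamini-Hochberg adjustment at 0.05; such values understate differences of low genes. In simulated data for this comparison, 0%, 76% and 100% of 50 genes at 1, 2 and 4 TPM were called, over 22381 genes. Spread came from whole-number rounded expected counts in edgeR (4.0.16), TMM and filterByExpr (14140 genes kept). DESeq2 (1.42.0), the second table, CPM, other floors, filters and pseudocounts, and leaving out each library were alternatives. A gene at 0 could have had up to 3 counts, or 0.242, 0.164 and 0.165 CPM, for counting error only.

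Coding sequences came from release M21 (global alignment, Biopython 1.88; match 2, mismatch -1, gap opening -5, extension -0.5) and promoters from RefSeq (GRCm38.p6). Protein sequences were not used here. Named genes were the members, other Slfn genes, the 4 highest neighbours, the 3 highest and any uncalled gene of each pathway list, the 3 genes nearest Slfn4 and the highest marker of each list; Irf9, Ifnar1, Ifnar2, Usp18, Socs1, Ang, Gm11427, Mir7679 and Gp9 were added after their values were seen. Some genes that this rule names are not reported here. The members, lists and tests were chosen with earlier results of these data known.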

Additional observations from a re-analysis of the deposited data

How the results depend on the processing

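All 7 members lay above the floor in all 63 fits of a member under 9 alternatives (limma), with a largest adjusted p of 0.0245. Interferon signalling lost Socs1 with no filter and with a floor of 5 TPM; the transfer RNA list lost Ang with no filter, on CPM, without replicate 1 and without replicate 2, and 5 genes passed a floor of 5 TPM. CPM, which is not corrected for length, gave mean levels of 61.8 for Slfn3, 894 for Slfn4, 667 for Slfn5, 608 for Slfn8 and 67.3 for Slfn9. The second transcript table gave 211 TPM for Slfn4, 25.8 TPM for Slfn9, and coding shares of 43.4% for Slfn3 and 99.97% for Slfn5; the cause was not tested. No paired analysis was possible because the labels give a single group. Counts limit the low genes most: Slfn14 rests on 4 to 8 counts.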
